A study of Homo sapiens with 4 samples.

Results

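The plexins are the receptors for semaphorins, and 6 plexin genes were examined here for crosslinking to PDCD4, the RNA-binding tumour suppressor programmed cell death 4. The genes were PLXNA1, PLXNA2, PLXNA3, PLXNB1, PLXNB2 and PLXND1, taken as every crosslink site whose deposited label held 1 of these symbols, at any score. They held 555 of the 158922 sites listed for PDCD4 and 187 of the 111361 sites listed for IgG, and they were 6 of 14416 genes with a listed site. Of the other plexin genes, PLXNB3 had 1 PDCD4 site with 3 cDNAs and no IgG site, and no site was listed for PLXNA4 or PLXNC1 in either list.

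The sites came from iCLIP, in which a protein is crosslinked to RNA with ultraviolet light and immunoprecipitated, and each cDNA ends next to the crosslinked nucleotide. The cells were MCF10A, an immortalised line of non-tumorigenic human breast epithelial cells, wild type in both groups and grown with horse serum, epidermal growth factor, insulin, hydrocortisone and cholera toxin. PDCD4 was immunoprecipitated in 2 replicates and the control IgG in 2 replicates, and each pair was pooled by the authors into 1 list of 1-nt sites whose score is the number of cDNAs. There was therefore 1 list per group, no replicate spread and no test, and the 95% intervals given below cover counting error only.

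Plexins are single-pass membrane proteins. An extracellular sema domain binds semaphorins, alone or together with neuropilins, and a cytoplasmic GTPase-activating domain acts on Ras-family and Rap GTPases. The class A plexins are the usual partners of neuropilins and class 6 semaphorins, class B plexins bind class 4 semaphorins and signal together with the receptor kinases MET and ERBB2, and PLXND1 is best known from vascular patterning. In epithelia these receptors act on adhesion, the cytoskeleton and migration.

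The positions with the highest PDCD4 scores are shown first, because they are where single nucleotides of plexin RNA were recovered most often. Each sequence is the RNA strand of GRCh38 written as DNA, with 15 nt before and 14 nt after the crosslinked nucleotide, which is the capital letter. The highest intronic sites of PLXNA1, PLXNA3 and PLXNB1 had 7, 7 and 6 cDNAs. They lay at chr3:127019959-127019988 on the plus strand in intron 20, at chrX:154460046-154460075 on the plus strand in intron 1, and at chr3:48420320-48420349 on the minus strand in intron 10. They were 228, 96 and 77 nt before the end of their introns.
PLXNA1 intron 20: tggtgctgatgctttCtctgcccttgtctt
PLXNA3 intron 1: ctcctctctccctgtCacggtggccatctg
PLXNB1 intron 10: tttcctcttaacataCactgtgcctgcctg
These windows were 73.3%, 73.3% and 70.0% pyrimidine, and the crosslinked nucleotide was C in each.

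The highest coding sites of PLXNA1, PLXNA3 and PLXNB2 had 6 cDNAs each, and that of PLXND1 had 4. They lay at chr3:126989018-126989047 (plus strand, exon 2, codon 147), chrX:154461167-154461196 (plus strand, exon 3, codon 226), chr22:50290290-50290319 (minus strand, exon 3, codon 94) and chr3:129557204-129557233 (minus strand, exon 34, codon 1817).
PLXNA1 exon 2: gtctggacgatctctTcaaactgggtgagc
PLXNA3 exon 3: ctttgacatctactaCatctacggcttcgt
PLXNB2 exon 3: aggctgagatgactgAcaatgtcaaccagc
PLXND1 exon 34: ctctgcccaggattcGccaaccaacaagct
These 4 coding windows held every base at the crosslinked position and were at most 66.7% pyrimidine. Other intronic sites with 6 cDNAs lay at T in PLXNA1 intron 8 and at G in PLXNB2 intron 27. Over all plexin PDCD4 sites the median window was 53.3% pyrimidine in introns and in coding sequence, so the sites shown mark no difference between these regions. The PLXNB2 score was shared by other sites of that gene, so it marks no single best position. The highest PLXNA2 score was 5, shared by 4 sites. Among them, the site in intron 28 had other exact copies in the genome, and a 3′UTR site was also listed with IgG.

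Plexin RNA was recovered at a higher share with PDCD4 than with IgG. The 6 genes together had 1580 cDNAs listed with PDCD4 and 508 with IgG, or 38.6 against 18.4 per 10000 cDNAs of the list, a log2 ratio of 1.07 (95% interval 0.92 to 1.21). At scores greater than 5, which left 80 and 18 cDNAs, the summed ratio was 0.14 (-0.59 to 0.86). The list totals behind this value also counted only sites with scores greater than 5. Throughout, the ratio is PDCD4 over IgG after 1 cDNA was added to each sum. Without PLXNA2, the member with the smallest ratio, the other 5 had 1089 and 227 cDNAs and a log2 ratio of 1.69 (1.48 to 1.90). That rise follows from leaving this member out. Of the 5 plexins with at least 50 cDNAs over both lists, 4 were above 2-fold, where 13.6% of all 3972 genes with that many cDNAs were. The median of those genes was -0.14. The lists leave out positions that failed a false discovery rate filter, so their cDNAs are missing from both sums, and the part of this filter in the ratios was not tested. The lowest score listed for a lone site also differed between the lists in PLXNA1 and PLXNA3.

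Among the class A receptors, PLXNA2 had the most cDNAs and the smallest ratio. PLXNA2, on chromosome 1, had 491 cDNAs at 204 sites with PDCD4 and 281 cDNAs at 108 sites with IgG, which is 12.0 and 10.2 per 10000. Its log2 ratio was 0.24 (0.02 to 0.45), and 0.20 (-0.01 to 0.41) without its sites that had another exact copy in the genome. PLXNA1, on chromosome 3, had 390 cDNAs at 124 sites against 100 cDNAs at 40 sites, and its log2 ratio was 1.39 (1.07 to 1.70). PLXNA3, a short gene on chromosome X, had 149 cDNAs at 49 sites against 19 cDNAs at 7 sites, with a log2 ratio of 2.34 (1.67 to 3.01). The intervals of these 3 ratios overlapped between PLXNA1 and PLXNA3 by a small margin, and that of PLXNA2 lay apart from both. The encoded proteins were nonetheless the most alike of the 6: PLXNA2 shared 64.4% of aligned residues with PLXNA1 and 60.4% with PLXNA3, and PLXNA1 shared 67.4% with PLXNA3.

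The class B receptors resembled one another more closely. PLXNB1 had 235 cDNAs at 77 sites against 56 cDNAs at 16 sites, a log2 ratio of 1.48 (1.06 to 1.90). PLXNB2 had 275 cDNAs at 86 sites against 50 cDNAs at 15 sites, a log2 ratio of 1.87 (1.44 to 2.30). The intervals of both ratios overlapped, and the proteins shared 46.0% of aligned residues. PLXND1 was listed far less often, with 40 cDNAs at 15 sites against 2 cDNAs at 1 site. Its log2 ratio of 3.20 was the highest of the 6 but its interval ran from 1.51 to 4.90 and included the values of PLXNB2 and PLXNA3, and its total of 42 cDNAs was below the minimum of 50. Apart from PLXNA2, whose interval ended below all others, each neighbour in the order of ratios overlapped the next.

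**Figure D1:**
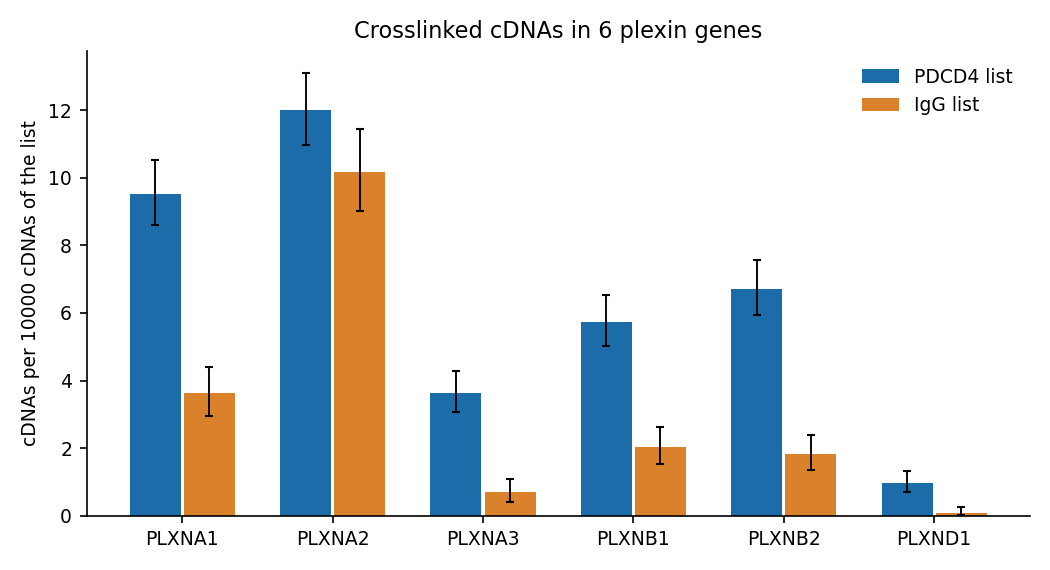
cDNAs of each plexin per 10000 cDNAs of its list (vertical axis, linear from 0), with blue bars for the pooled PDCD4 list, orange bars for the pooled IgG list and error bars for the 95% Poisson interval. PLXNA2 is the only gene whose intervals in the lists meet, at 12.0 and 10.2, and PLXND1 is the lowest in both lists, at 0.977 and 0.0724.

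Because longer genes offer more positions, levels were compared between genes per kb. In coding sequence the PDCD4 list held 14.3 cDNAs per kb for PLXNB2 (11.3 to 17.9), 11.7 for PLXNB1 (9.21 to 14.7), 11.4 for PLXNA2 (8.83 to 14.6), 8.79 for PLXNA1 (6.52 to 11.6), 7.13 for PLXNA3 (5.09 to 9.70) and 2.25 for PLXND1 (1.20 to 3.85). Neighbours in that order overlapped except PLXNA3 and PLXND1. The order in introns was different. PLXNA3 had 10.9 intronic cDNAs per kb (8.82 to 13.4), PLXNB1 7.77 (6.57 to 9.12), PLXNA1 6.67 (5.94 to 7.47), PLXNB2 6.66 (5.71 to 7.73), PLXNA2 1.21 (1.06 to 1.36) and PLXND1 0.606 (0.399 to 0.882). PLXNA2 was thus among the middle of the 6 in coding sequence and the second lowest in introns. Neither list was scaled to RNA abundance, so more transcript and more crosslinking per transcript cannot be told apart between genes.

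With PDCD4, introns held more plexin sites than any other region. Of the 555 sites, 309 were intronic (55.7%, 51.5 to 59.8), 108 were in coding sequence (19.5%, 16.38 to 22.96), 101 were in the 3′UTR (18.2%, 15.2 to 21.6), 5 were in the 5′UTR and 32 were in exons of non-coding transcripts of the same genes. With IgG, 137 of 187 were intronic (73.3%, 66.5 to 79.1) and 22 were coding (11.8%, 7.90 to 17.2). The whole lists moved the same way, from 66.0% intronic with IgG to 49.6% with PDCD4, and from 9.72% to 20.9% coding. The share of coding sites among the plexin PDCD4 sites was therefore close to that of the list at large.

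The genes differed in where their sites lay. PLXNA1 was the most intronic with PDCD4, at 92 of 124 sites (74.2%, 65.8 to 81.1). PLXNB1 had 26 of 77 sites in coding sequence (33.8%, 24.2 to 44.9), while PLXNA1 had 15 of 124 (12.1%). PLXNA2 had 70 of 204 sites in its 3′UTR (34.3%, 28.1 to 41.1), against 14 of 108 with IgG (13.0%, 7.88 to 20.6). In the other 5 genes together 31 of 351 PDCD4 sites were in the 3′UTR (8.83%, 6.29 to 12.3). No 3′UTR site was listed for PLXND1 in either list.

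**Figure D2:**
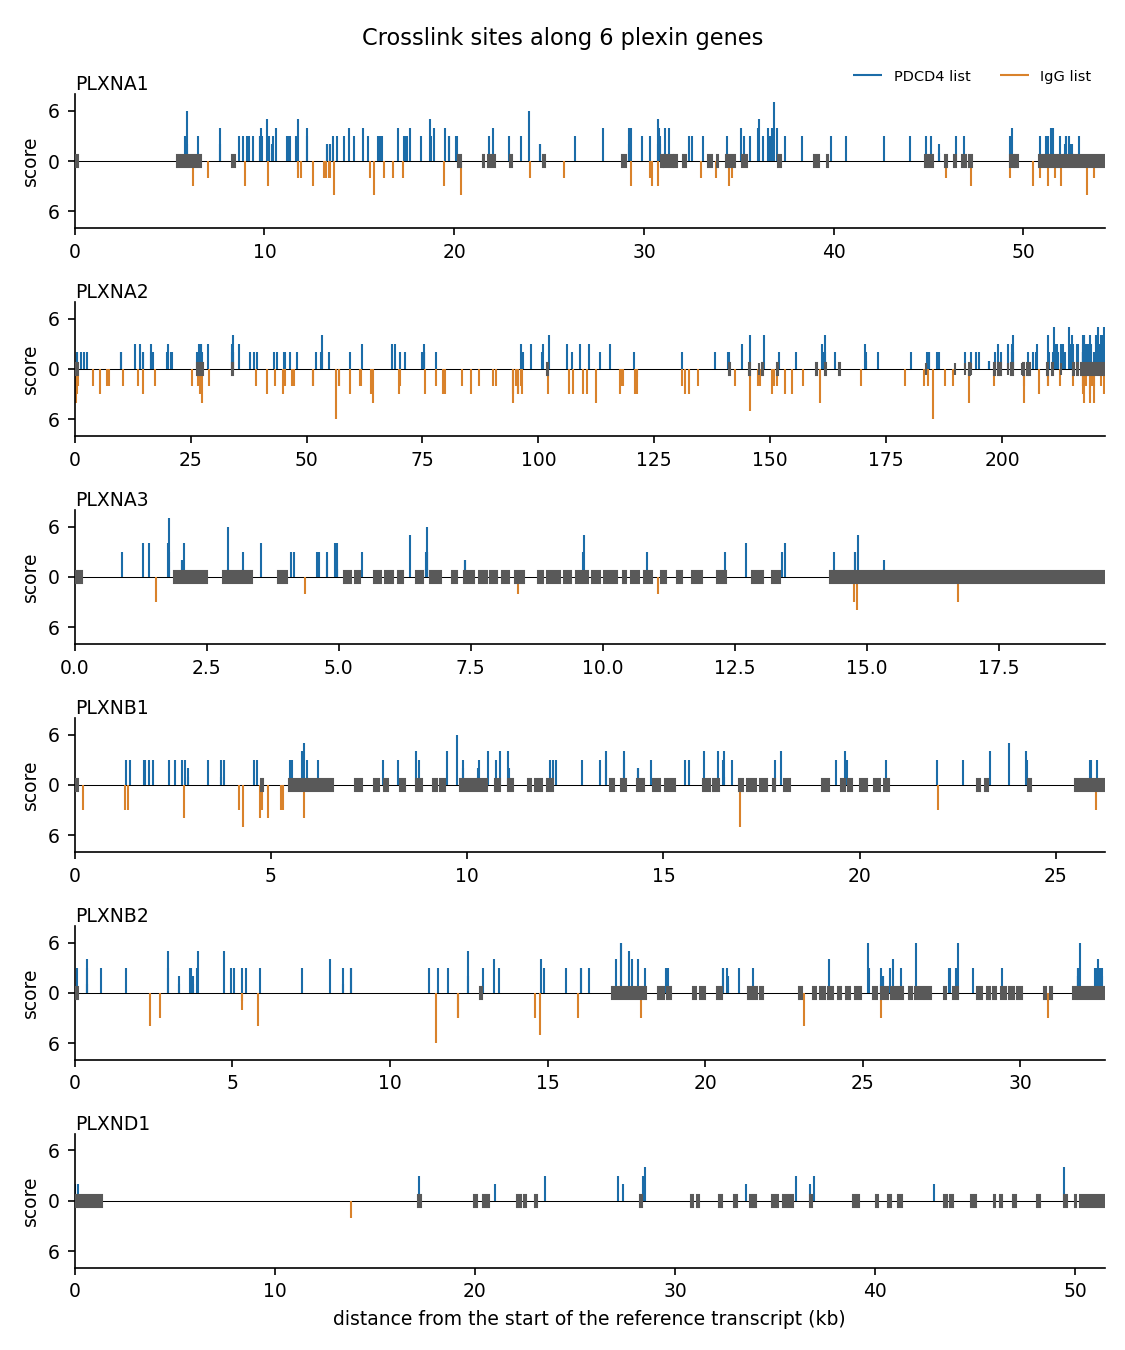
Crosslink sites along each plexin gene, with the distance from the start of the reference transcript in kb on the horizontal axis, site score (cDNAs) upwards for PDCD4 in blue and downwards for IgG in orange, and exons as grey boxes. The scales differ between genes. PLXNA2 carries IgG sites across its long introns and PDCD4 sites crowd its last exon, while PLXNA3 and PLXND1 have 7 and 1 IgG sites in all.

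Divided by region, the PLXNA2 ratio split in opposite directions. Its 3′UTR had 166 cDNAs with PDCD4 and 36 with IgG, a log2 ratio of 1.61 (1.09 to 2.12) relative to the list totals. Its introns had 234 and 210 cDNAs and a log2 ratio of -0.41 (-0.68 to -0.14), and its coding sequence had 65 and 26 and a ratio of 0.72 (0.08 to 1.37). The near-equal share over the whole gene was thus the sum of a higher 3′UTR share and a lower intronic share. Within its region, that is against all 3′UTR cDNAs of each list, the PLXNA2 3′UTR stood at 1.39 (0.87 to 1.90), where the median of 528 genes was 0.01. Against all intronic cDNAs, its introns stood at 0.03 (-0.24 to 0.30), where the median of 2014 genes was -0.17.

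In the other plexins the intronic share was higher with PDCD4. Against all intronic cDNAs of each list, the log2 ratio was 1.96 for PLXNA1 (1.59 to 2.34, 297 against 69 cDNAs), 1.74 for PLXNB2 (1.26 to 2.22, 163 against 44) and 1.17 for PLXNB1 (0.65 to 1.69, 102 against 41). It was 3.50 for PLXNA3 (2.30 to 4.70, 73 against 5) and 2.93 for PLXND1 (1.21 to 4.66, 24 against 2). All 5 intervals lay above 0.

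Coding sequence gave a more mixed picture. Against all coding cDNAs of each list, PLXNB2 stood at 1.84 (0.73 to 2.96, 79 against 6 cDNAs), PLXNB1 at 1.25 (0.30 to 2.20, 75 against 9) and PLXNA3 at 2.10 (0.41 to 3.79, 40 against 2). PLXNA1 stood at -0.17 (-0.95 to 0.60, 50 against 17) and PLXNA2 at -0.38 (-1.03 to 0.26, 65 against 26), and both intervals included 0. The median of 387 genes in coding sequence was 0.21, which these intervals also included. Because coding sequence as a whole took a larger part of the PDCD4 list, the same cDNAs of PLXNA1 gave 0.93 (0.16 to 1.71) against the list totals. PLXND1 had 13 coding cDNAs with PDCD4 and was listed at 0 with IgG, at least 2.92-fold higher against the list totals and at least 1.36-fold higher against all coding cDNAs, with a floor of 3 cDNAs for the IgG list. In the 3′UTR of PLXNB2 there were 18 cDNAs against 0, at least 4.05-fold higher against the list totals and at least 3.47-fold higher against all 3′UTR cDNAs by the same floor, and in that of PLXNA3 there were 15 against 10.

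**Figure D3:**
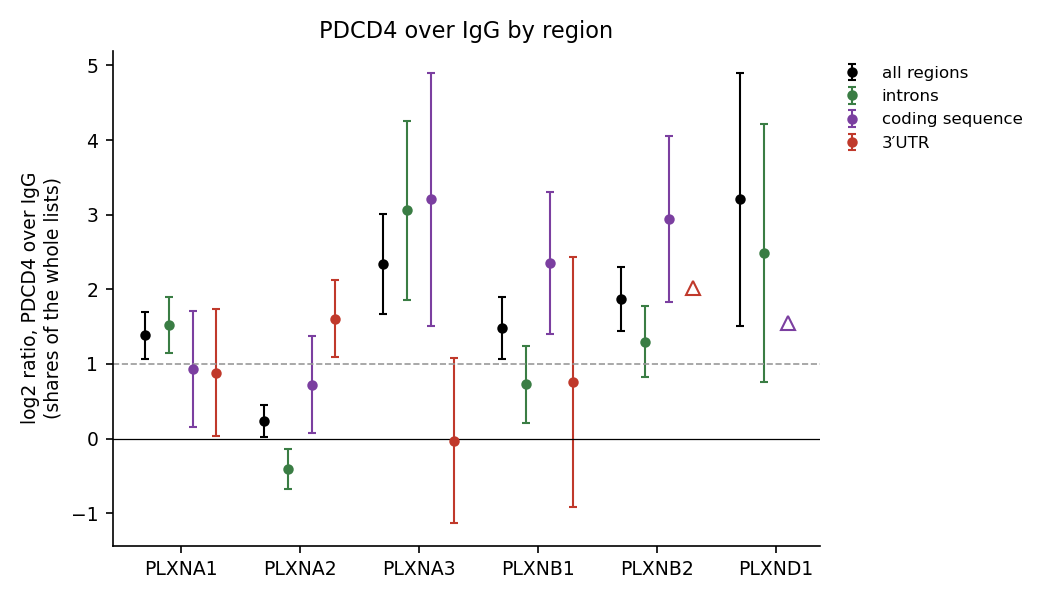
Log2 ratio of PDCD4 over IgG for each plexin, as shares of the whole lists, over all regions (black), introns (green), coding sequence (purple) and 3′UTR (red), with 95% intervals from counting error. Open triangles are lower bounds where IgG is listed at 0, and the dashed line marks 2-fold. For PLXNA2 the intronic value of -0.41 lies below 0 and the 3′UTR value of 1.61 above it.

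Sites were spread over many introns, and a few single introns held a large number. Here the introns are those of the reference transcript, so sites in exons of non-coding transcripts are counted too. Intron 3 of PLXNA1, of 11763 nt, held 50 sites and 158 cDNAs with PDCD4, against 17 and 41 with IgG. Intron 20 of the same gene, of only 1673 nt, held 10 sites with 40 cDNAs and none with IgG. In PLXNB2 the first intron, of 12774 nt, held 32 sites with 95 cDNAs against 8 sites with 26 cDNAs, and in PLXNB1 the first intron held 18 sites with 49 cDNAs against 7 sites with 25 cDNAs. In PLXNA2 intron 3, of 67816 nt, held 31 sites with 72 cDNAs and, with IgG, 35 sites with 91 cDNAs. The long PLXNA2 intron was the only one of these with more cDNAs under IgG, but these introns were named for their many PDCD4 sites. Other introns also had more under IgG. For example, PLXNB1 intron 2 had 0 cDNAs with PDCD4 against 13 with IgG, and PLXNA2 intron 4 had 28 against 40.

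Some sites lay in tight groups. Sites no more than 20 nt apart were joined, and the group with the most cDNAs was in intron 10 of PLXNA3, an intron of 149 nt, where 6 sites with 17 cDNAs lay within chrX:154464927-154464948. No IgG site was listed in that intron. The largest group of each of 3 other genes was smaller: in exon 3 of PLXNB2, 2 sites held 12 cDNAs, and in intron 10 of PLXNA1 and in the 3′UTR of PLXNA2, 3 sites each held 11. With IgG the largest such groups held 2 to 6 cDNAs in each of the 6 genes.

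Split by intron length, all 6 plexins summed had log2 ratios relative to the list totals that fell with length. They were 1.88 (1.53 to 2.24) under 2 kb, 0.80 (0.41 to 1.19) at 2 to 10 kb and 0.25 (0.01 to 0.48) at 10 kb or more. The 5 plexins other than PLXNA2, the member with the smallest ratio in these data, also had their highest summed ratio in short introns. Introns under 2 kb had 368 cDNAs with PDCD4 and 53 with IgG, a log2 ratio of 2.20 (1.79 to 2.62) relative to the list totals. Introns of 2 to 10 kb had 123 and 41 cDNAs and a ratio of 0.99 (0.49 to 1.50), and introns of 10 kb or more had 253 and 69 and a ratio of 1.29 (0.91 to 1.67). In PLXNA2 the values were 0.37 (-0.38 to 1.11), 0.48 (-0.12 to 1.08) and -0.67 (-0.996 to -0.348). Over all genes the ratios of the 3 classes were 0.44, -0.16 and -0.65. The sum of the 5 plexins and that of all 6 were above the list-wide value in each class. PLXNA2 was close to the list-wide value in short introns and in introns of 10 kb or more. At 10 kb or more the sum of the 5 rested on PLXNA1 intron 3 (158 against 41 cDNAs) and PLXNB2 intron 1 (95 against 26). PLXND1 intron 1 had 0 against 2. The longest introns of PLXNA3 and PLXNB1 were 1728 and 4674 nt, so intron length and gene cannot be told apart in this sum.

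**Figure D4:**
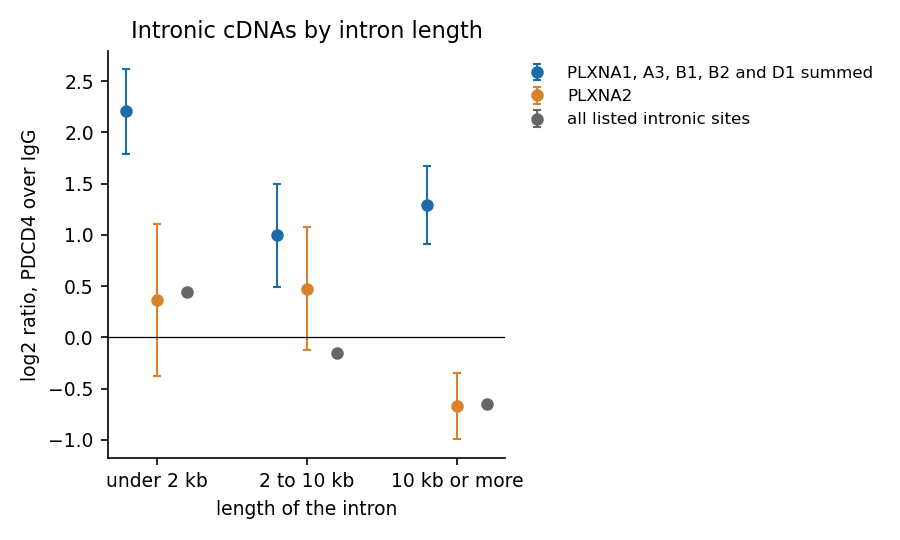
Log2 ratio of PDCD4 over IgG for intronic cDNAs, as shares of the whole lists, by length of the intron, for 5 plexins summed (blue), PLXNA2 (orange) and all listed intronic sites (grey), with 95% intervals from counting error; those of the grey points are smaller than the symbol. The blue points lie at 2.20, 0.99 and 1.29 and the grey points fall from 0.44 to -0.65.

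The coding sites were next placed along the receptor. The membrane-spanning segment was taken as the most hydrophobic stretch of 19 residues in the translated reference transcript, which fell at residues 1247 to 1265 of 1896 in PLXNA1 and 1199 to 1217 of 1838 in PLXNB2, for example. Of 108 coding sites with PDCD4, 75 lay before this segment, in sequence encoding the signal peptide and extracellular part (69.4%, 60.2 to 77.3), 3 within it and 30 after it, in the cytoplasmic part with the GTPase-activating domain. The extracellular part made up 66.3% of the combined protein length, which is inside that interval. With IgG, 13 sites were before and 9 after. PLXNB1 had 22 sites before and 3 after, PLXNB2 14 and 7, PLXNA2 17 and 8, PLXNA1 9 and 6, PLXNA3 9 and 5, and PLXND1 4 and 1.

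Several of the extracellular sites were in the long early exon that encodes much of the sema domain. Exon 3 of PLXNB2, of 1081 nt, had 7 sites with 32 cDNAs against 1 site with 3 cDNAs with IgG. Exon 3 of PLXNB1, of 1113 nt, had 7 sites with 22 cDNAs against 1 with 4, of which 6 sites with 19 cDNAs were coding with PDCD4. Exon 2 of PLXNA2 had 9 with 21 against 3 with 9, of which 8 with 19 were coding with PDCD4, and exon 2 of PLXNA1 had 4 with 14 against 1 with 3. At the other end of the transcripts, the last exon of PLXNA2, of 5097 nt, held 70 sites with 166 cDNAs, and the last exon of PLXNA3, of similar length at 5190 nt, held 7 sites with 18 cDNAs. Within internal exons the PDCD4 sites were at 2.82 per kb in the first 50 nt, 1.10 per kb in the last 50 nt and 4.74 per kb between, from 23, 9 and 67 sites. The log2 ratio of the first over the last 50 nt was 1.26 (0.20 to 2.33). With IgG there were 9, 1 and 11 sites. The order of the first part and the middle differed between windows, at 3.69 and 3.31 per kb with 25 nt and 6.30 and 6.20 per kb with 100 nt, while the last part was lowest with each. Wider windows took in fewer exons, which left 17, 3 and 36 sites in the first, last and middle parts with 100 nt. Window and set of exons therefore changed together.

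At scores greater than 5, the level named in the study's methods, 4 of the 6 plexins had a PDCD4 site, while 8.37% of all 12932 genes with a PDCD4 site did. That share covers many genes with few cDNAs. Among 349 genes with as many PDCD4 cDNAs as the 5 plexins above the minimum, from 149 to 491, 57.9% had such a site, where 4 of these 5 did. PLXNB2 had 6 such sites, PLXNA1 and PLXNA3 had 3 each and PLXNB1 had 1, 13 in all, and 6 of these were in coding sequence. PLXNA2, with the most sites of the family, had none, and its highest PDCD4 score was 5. Of its 204 sites 72 had a score of 3 or more, whereas 102 of 124 did in PLXNA1 and 71 of 86 in PLXNB2. The mean score was 2.41 in PLXNA2 and 2.67 to 3.20 in the other 5. Lone PDCD4 sites with scores below 3 were listed in PLXNA2, whereas PLXNA1 and PLXNB2 had such scores only close beside another site. The lowest score listed for a lone site thus differed between genes. In PLXNA1 and PLXNA3 it also differed between lists, as lone IgG sites of score 2 were listed, while lone PDCD4 sites started at 3. The part of this lowest score in these shares and means, and in the ratios of PDCD4 over IgG, was not tested. In the IgG list PLXNA2 had 2 sites above 5, both intronic, PLXNB2 had 1 and the other 4 had none. No plexin site was above 7, while the highest score of the whole PDCD4 list was 87.

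The crosslinked nucleotide of plexin sites was less often T (U in the RNA) than elsewhere. It was T at 33.9% of the 555 sites (30.1 to 37.9) and C at 36.0%, while over the whole PDCD4 list it was T at 46.7% and C at 26.5%. In introns T was at 32.4% of plexin sites (27.4 to 37.8) and 50.1% of the list. In coding sequence it was at 27.8% (20.2 to 36.9) and 34.4%, and in the 3′UTR at 45.5% (36.2 to 55.2) and 52.4%, and both of these intervals included the list value. In the 3′UTR, PLXNA2 had T at 52.9% and the other 5 genes at 29.0% (16.1 to 46.6). The IgG sites of the plexins had T at 30.5% (24.3 to 37.4) against 51.6% in the IgG list. Together, T and C made up 69.9% of plexin PDCD4 sites and 73.1% of the list. The 30 nt around plexin sites were also richer in G and C, with a median of 56.7% against 43.3%, and the part of base composition in the lower T share was not tested. PLXNA2, at 48.3% G and C around its sites, had T at 41.7%.

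Gene length and base composition moved with the ratio across all genes. Over 3956 genes with at least 50 cDNAs, which share the same lists, the rank correlation of the log2 ratio was -0.43 with gene length and 0.49 with the G and C content of the gene. The plexins other than PLXNA2 were G and C rich, from 58.3% in PLXND1 to 65.0% in PLXNB2, and PLXNA2 had 48.0%. Among genes under 20 kb, the class of PLXNA3, the median log2 ratio was 0.84 and the upper quartile 1.71. Among genes of 20 to 40 kb, the class of PLXNB1 and PLXNB2, they were 0.28 and 0.96, and among genes of 40 to 80 kb, the class of PLXNA1 and PLXND1, 0.02 and 0.65. Among genes of 160 kb or more, the class of PLXNA2, they were -0.57 and -0.15. Each of the 6 ratios was above the upper quartile of its length class, including the 0.24 of PLXNA2.

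By base composition the plexins stood out less. Among 432 genes with at least 55% G and C, the median was 0.79 and the upper quartile 1.48, and 40.3% were above 2-fold. PLXNA1 at 1.39 was below that quartile and PLXNB1 at 1.48 was level with it, while PLXNB2, PLXNA3 and PLXND1 were above. PLXNA2 at 0.24 was near the median of 0.17 of the 655 genes with 45% to 50%. The part of gene length and of base composition in the plexin ratios was not tested.

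**Figure D5:**
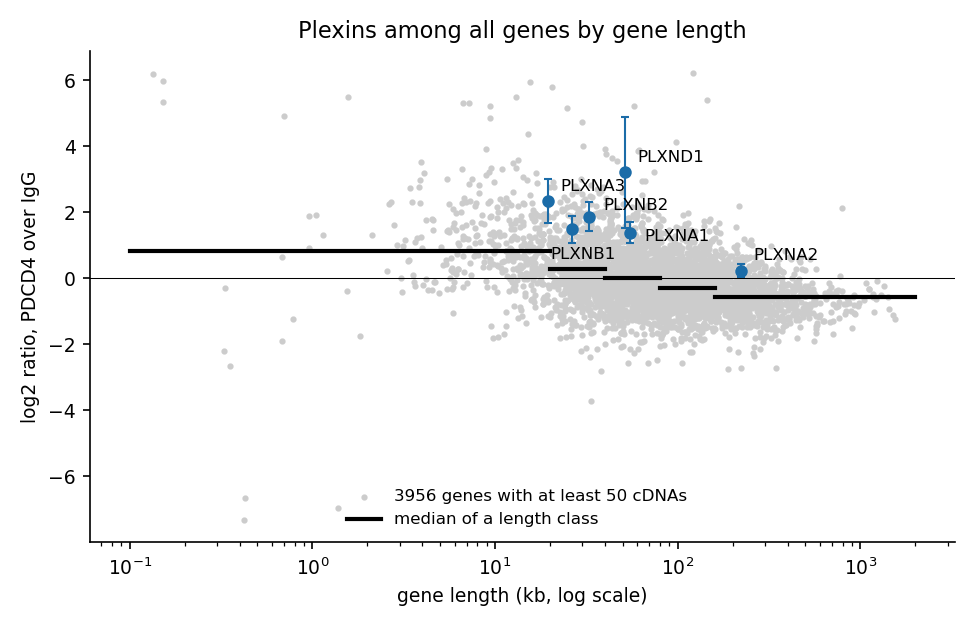
Log2 ratio of PDCD4 over IgG (vertical axis) against gene length in kb (horizontal axis, log scale) for 3956 genes with at least 50 cDNAs (grey), the median of each of 5 length classes (black lines) and the 6 plexins (blue, with 95% intervals from counting error; PLXND1 has 42 cDNAs). The medians fall from 0.84 to -0.57, and each plexin lies above the line of its class.

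The ligands of plexins gave values on both sides of 0. Of 20 semaphorins, 13 had a listed site and 4 had at least 50 cDNAs, with a median log2 ratio of -0.08. One of the 4 was above 2-fold, where 13.6% of all tested genes were, and 1 was more than 2-fold lower, where 12.7% were. SEMA4B, a class 4 semaphorin, was the higher, at 1.80 (1.06 to 2.55, 87 against 16 cDNAs). SEMA3C, a secreted ligand that acts through neuropilins and plexins, was the lower, at -1.36 (-1.97 to -0.75, 33 against 58). SEMA4D, the ligand of PLXNB1, stood at -0.57 (-1.12 to -0.02, 52 against 52) and SEMA3F at 0.40 (-0.31 to 1.11, 46 against 23).

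All 5 co-receptors had a site and none of the 4 with at least 50 cDNAs was above 2-fold, a count too small to set against the 13.6% of all tested genes. The neuropilins NRP1 and NRP2, which bind class 3 semaphorins together with class A plexins, stood at -0.60 (-1.24 to 0.03, 38 against 39 cDNAs) and -0.59 (-1.05 to -0.13, 74 against 75). The receptor kinases MET and ERBB2, which associate with class B plexins, stood at -0.20 (-0.72 to 0.33) and 0.72 (-0.12 to 1.56). The related kinase MST1R, with too few cDNAs for the minimum and singled out after its values were seen, had 43 cDNAs against 0, at least 9.67-fold higher against a floor of 3 cDNAs for the IgG list.

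Of 29 effectors and regulators of plexin signalling, 26 had a site and 15 had at least 50 cDNAs. None of the 15 was above 2-fold, where 13.6% of all tested genes were, and 3 were more than 2-fold lower with PDCD4, where 12.7% were. These counts are too small to set apart from those shares. The 3 encode small GTPases: RAC1, which drives lamellipodia, at -2.21 (-3.00 to -1.42), RRAS2 at -1.36 (-1.91 to -0.81) and RAP1B, a substrate of the plexin GTPase-activating domain, at -1.29 (-2.04 to -0.55). The highest of the 15 were ARHGEF11 at 0.52 (0.02 to 1.03) and CFL1, the actin-severing cofilin, at 0.43 (0.02 to 0.84). ARHGEF11 and ARHGEF12, exchange factors bound by class B plexins, had 97 against 45 and 86 against 43 cDNAs. The median of the 15 was -0.31.

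Laminin chains and integrins, other large families of the epithelial surface, gave mixed values. The 6 laminin chains with at least 50 cDNAs had a median of 0.82 with 3 above 2-fold, and the 10 integrins had a median of 0.18 with 3 above and 1 more than 2-fold lower, where 13.6% and 12.7% of all tested genes were. The 5 plexins with that many cDNAs had a median of 1.48, a set of too few genes to be placed apart from either family without a test. The genes whose levels in both lists were nearest to the mean of the 6 plexins, in log2 cDNAs per 10000, were AP3D1 (187 against 39 cDNAs), CDV3 (219 against 37) and DNMT1 (201 against 45), over 2 lists only.

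The labelled cell type was checked with marker genes. All 11 breast epithelial markers had sites with PDCD4, with 2365 cDNAs summed with PDCD4 and 729 with IgG. They ranged from 808 and 267 cDNAs for KRT7 to 3 and 0 for KRT14. Of 11 markers of fibroblasts, endothelium and blood only the fibroblast gene DCN was listed, with 2 cDNAs in each list. The PDCD4 list held 409308 cDNAs and the IgG list 276139, with mean scores of 2.58 and 2.48 per site, and 721 positions were in both lists, 1 of them in a plexin (PLXNA2). Exact copies of plexin sites elsewhere in the genome were rare, as the 30 nt from the site on had another exact copy for 11 of 555 PDCD4 sites, with 31 cDNAs, and for 1 of 187 IgG sites.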

How the data were processed

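The authors processed the iCLIP reads with iCount on GRCh38 with Ensembl release 88 annotation and deposited, per immunoprecipitation, 1 list of crosslink sites pooled over 2 replicates. Each deposited score is a raw cDNA count at a 1-nt site, not normalized, and only sites passing their false discovery rate filter are listed, so cDNAs at sites that failed are missing from every sum. Their methods describe removing IgG sites and keeping scores greater than 5; the lists still hold lower scores and shared positions, and all were used. Alignment and collapsing settings are not given in the sources used here.

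Samples were grouped by their titles as PDCD4 or IgG. Scores were summed per gene and divided by list totals, ratios were taken with a pseudocount of 1 cDNA, and intervals are Poisson for counts and ratios and Wilson for shares. Called means above 2-fold among genes with at least 50 cDNAs. Regions came from GENCODE release 44, on the same build, with coding sequence first, then the 3′UTR, 5′UTR, non-coding exons and introns; introns, exons and codons came from the Ensembl canonical transcript, called the reference transcript. No RefSeq protein was used: the membrane segment was found on the translated reference transcript by Kyte-Doolittle hydropathy after residue 100. Sequences were read from GRCh38. With 1 list a group, no test was made. The named genes were the 6 plexins, their ligands, co-receptors, effectors, laminins and integrins (with at least 50 cDNAs, unless said otherwise), and the 3 genes nearest in level. The members and lists were chosen with earlier results of these data known. Alternatives changed the score minimum, pseudocount, totals, region, gene filter, site labels and shared sequence. The calculation of ratios and intervals was checked on simulated Poisson counts. These had no replicate spread and no site filter, so they cannot show how the intervals hold in the real lists. Python 3.11.15, numpy 2.4.6, pandas 2.3.3, scipy 1.17.1, pysam 0.24.0 and Biopython 1.88 were used.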

Additional observations from a re-analysis of the deposited data

How the results depend on the processing

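No paired analysis was possible because each deposited list pools its 2 replicates and its columns carry no replicate numbers, and leaving out a replicate was impossible for the same reason. The summed plexin ratio of 1.07 became 0.14 (-0.59 to 0.86) at scores greater than 5, where 80 cDNAs were left with PDCD4 and 18 with IgG. The list totals were then also cut to sites above 5, of which the PDCD4 list had 2354 and the IgG list 768. In coding sequence only, the summed ratio was 0.73 (0.34 to 1.13) against all coding cDNAs and 1.84 (1.44 to 2.23) against the list totals. PLXNA1 in coding sequence stood at -0.17 against all coding cDNAs, with an interval that included 0, and at 0.93 (0.16 to 1.71) against the list totals. At scores greater than 5 the coding share of plexin PDCD4 sites was 46.2%, 6 of 13 sites. At scores greater than 10 no plexin had a site, so that count was 0 and the ratios could not be computed. PLXNA2 had 0 cDNAs above a score of 5 with PDCD4 and 12 with IgG, against 19 and 0 for PLXNA1. In all, 25 of 29 alternatives for the summed ratio, the counts and the shares, and 63 of 71 for single genes, moved the value by less than its interval or, for counts, by less than 1.5 times. Leaving out sites with another exact copy in the genome was chosen after seeing the data. The low scores limit single positions, and the shallower IgG list limits ratios of genes with few IgG cDNAs, above all PLXND1.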
